A study of Drosophila melanogaster with 6 samples.

Results

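The 10 genes described here make, shape or bind chitin in Drosophila melanogaster: kkv, knk, rtv, verm, serp, obst-A, obst-B, obst-E, Gasp and Cda5. They were chosen by name, and all 10 were found among the 14240 genes of the deposited table, as 28 of its 30828 transcripts. A gene's value is the sum of its transcripts in TPM, a transcript's share of the library after correction for its length, with blank cells read as 0. RNA tagged with an alkyne-bearing base was captured from early L3 larval carcass, which holds mainly muscle, epidermis and peripheral neurons, after the central nervous system had been dissected away. EC-RNA came from larvae carrying 109(2)80-Gal4 and UAS-CD:UPRT that were fed 5-ethynylcytosine (5EC) for 12 hours. CD:UPRT is a fused enzyme that lets a cell use 5EC, and the Gal4 line drives it in multidendritic (md) neurons, the sensory neurons of the body wall, and also in the central nervous system. Ref-RNA came from UAS-CD:UPRT larvae with no Gal4 that were fed 5-ethynyluridine (5EUd), which every cell can use. Mock-RNA came from UAS-CD:UPRT larvae fed neither analog, and it measures what the purification carries over without a tag. All 3 sample types therefore share the UAS-CD:UPRT transgene, and each had 2 biological replicates made from pooled carcasses.

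Chitin is a polymer of N-acetylglucosamine that stiffens insect cuticle. It is made at the apical membrane of epidermal and tracheal cells by a membrane-bound synthase and is then bundled, deacetylated and bound by secreted proteins. In the body wall, md neuron dendrites spread beneath the epidermis that secretes this cuticle, so carcass RNA holds the transcripts of both.

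The EC-RNA and mock-RNA libraries listed fewer genes above 0 than ref-RNA, with 4761 and 5016 genes in EC-RNA, 9942 and 10369 in ref-RNA, and 2178 and 1812 in mock-RNA. Depth cannot be read from TPM, but the authors report the most mapped reads for ref-RNA, far fewer for EC-RNA and the fewest for mock-RNA. A gene at 0 is reported only as listed at 0. Muscle genes were lower in both EC-RNA libraries than in both ref-RNA libraries for 8 of 8 markers. The share over all 9064 genes tested in this comparison was 69.1%. The muscle markers summed to 31154 to 32127 TPM in EC-RNA, 59204 to 65819 TPM in ref-RNA and 16082 to 35453 TPM in mock-RNA. The 6 md neuron markers summed to 2.47 and 155 TPM in EC-RNA, 148 and 133 TPM in ref-RNA and 10.9 and 17.8 TPM in mock-RNA. The channel gene ppk26 was listed at 0 in both EC-RNA libraries, and ppk had 0 and 0.0910 TPM there. The 7 general neuron markers summed to 211 and 649 TPM in EC-RNA, 283 and 251 TPM in ref-RNA and 237 and 164 TPM in mock-RNA. The sums of both lists were thus above ref-RNA in EC-RNA replicate 2 and below it in replicate 1. Elav had 32.3 and 330.7 TPM in EC-RNA against 63.1 and 54.8 TPM in ref-RNA. Syt1 had 0.168 and 0.444 TPM against 9.05 and 12.8 TPM, and fne 0 and 0.322 TPM against 8.75 and 3.74 TPM. In each of these lists, 0 markers were above ref-RNA in both EC-RNA libraries, where 3.16% of all genes tested were. In each list, 2 markers were below ref-RNA in both EC-RNA libraries.

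In ref-RNA, the transcripts newly made in the whole carcass, every one of the 10 genes was above 0 in both replicates, and 5 of them were abundant. Vermiform (verm) was the highest at 548 ± 30.6 TPM (SD, n = 2 for every ref-RNA value in this paragraph), which placed it 149th of 11061 genes above 0. It was followed by obst-A at 507 ± 41.7 TPM, obst-E at 402 ± 175 TPM, serpentine (serp) at 294.6 ± 9 TPM and Gasp at 283 ± 23.4 TPM. The replicate ranges of each of these 5 genes overlapped that of its neighbour in the order. A wide step followed, since obst-B, the next gene, averaged 27.6 ± 9.99 TPM and did not overlap Gasp. Cda5 averaged 23.0 ± 1.67 TPM and krotzkopf verkehrt (kkv) 20.3 ± 6.16 TPM, and both overlapped each other and obst-B. Knickkopf (knk) at 10.01 ± 0.600 TPM lay below both kkv libraries, and retroactive (rtv) at 8.02 ± 3.63 TPM overlapped knk. The 5 abundant members thus all encode deacetylases or chitin-binding proteins, while Cda5 and obst-B lay with the synthase among the scarcer ones. The 10 genes together made up 0.0965% and 0.338% of the TPM in EC-RNA, 0.230% and 0.194% in ref-RNA, and 0.0338% and 0.0647% in mock-RNA.

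**Figure D1:**
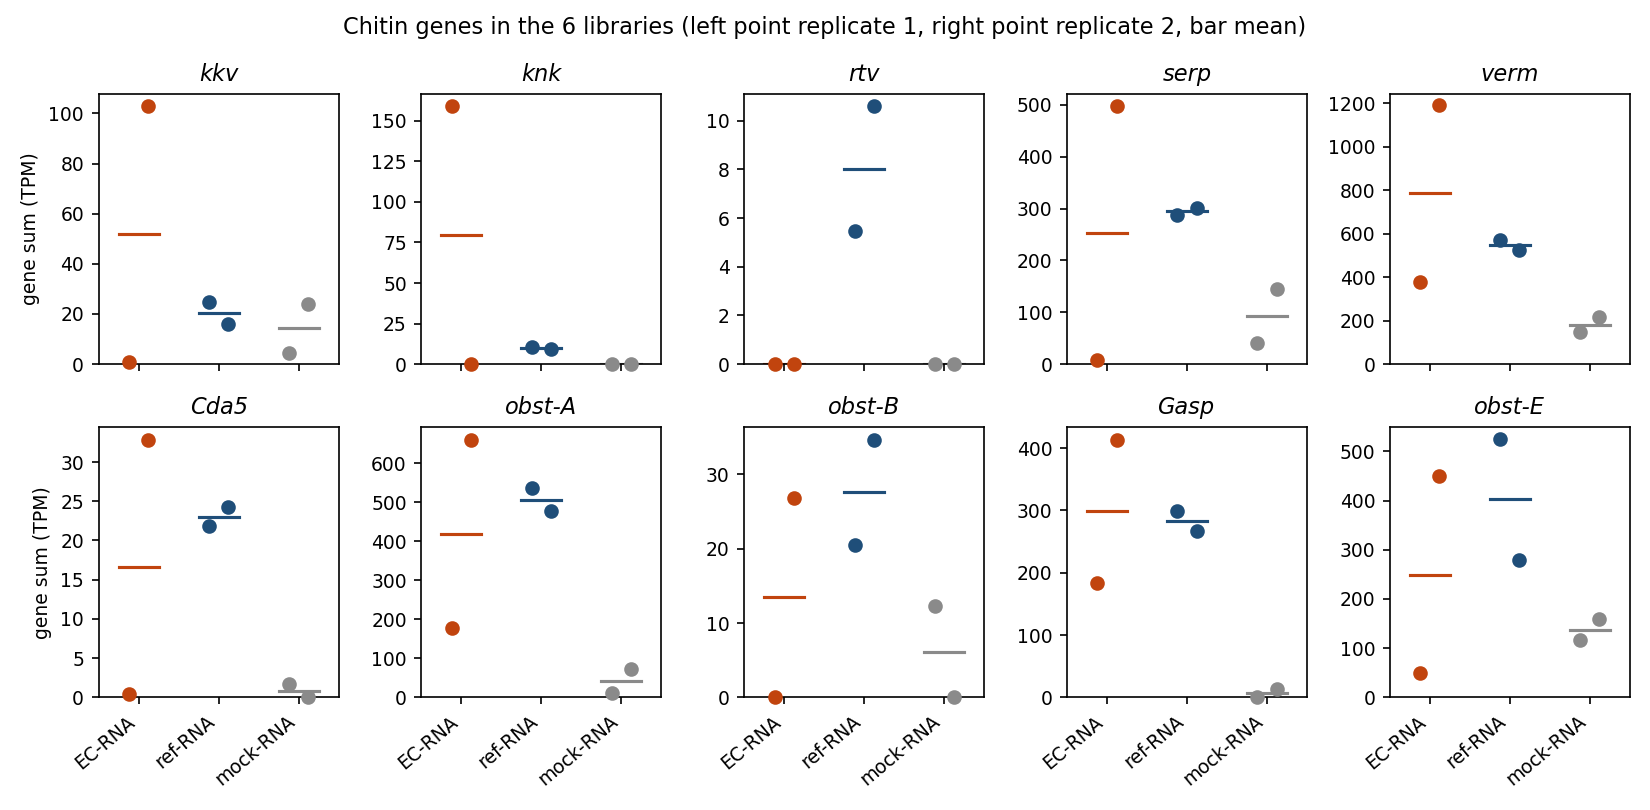
Gene sums in TPM (linear axis from 0, scaled for each gene) of the 10 chitin genes in EC-RNA, ref-RNA and mock-RNA, with replicate 1 as the left point, replicate 2 as the right point and a bar at their mean. The ref-RNA points of a gene are at most 1.88-fold apart on the TPM + 1 scale, while the EC-RNA points of kkv, knk and serp are 53.3-fold, 128-fold and 52.1-fold apart on that scale.

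The first group of members makes the polymer and readies it. Kkv is the chitin synthase of epidermis and trachea, and its gene spans 3R:5378093-5392866 on the minus strand (BDGP6.54, as are all positions here). It had 0.947 and 102.9 TPM in EC-RNA, 24.6 and 15.9 TPM in ref-RNA, and 4.42 and 24.1 TPM in mock-RNA. Its EC-RNA replicates lay on either side of all 4 other libraries, with the first at 4.68% of the ref-RNA mean and the second at 508% of it. Knk is a membrane-anchored protein that organizes chitin and shields it from chitinases (3R:10122365-10125664, minus strand). It had 158.9 and 0.250 TPM in EC-RNA, 10.4 and 9.59 TPM in ref-RNA, and was listed at 0 in both mock-RNA libraries. Here the first EC-RNA replicate was the high one, so knk ran opposite to kkv across the same libraries. Of its 2674 exonic bases, 1712 overlap exons of an antisense RNA gene, asRNA:CR46038, and since the use of strand in quantification is not given in the sources used here, the value is uncertain to that extent. Rtv is a small protein of the Ly6 type that is needed for Knk to reach the cell surface (X:11152484-11153990, minus strand). It was listed at 0 in both EC-RNA libraries, had 5.46 and 10.6 TPM in ref-RNA, and was listed at 0 in both mock-RNA libraries. It was the only member listed at 0 in both EC-RNA libraries and had the lowest mean in ref-RNA. Of its exonic bases, 109 overlap an exon of Lint-1 on the opposite strand.

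The second group is the chitin deacetylases, which remove acetyl groups from the polymer. Verm and serp, secreted deacetylases that limit tracheal tube length, are neighbours on 3L at 19690033-19695260 and 19700977-19708015, both on the minus strand, with 5716 bases and no gene between them. Verm had 378.5 and 1192 TPM in EC-RNA, 569.4 and 526.2 TPM in ref-RNA, and 147.8 and 214.4 TPM in mock-RNA. It was the highest of the 10 genes in each of the 6 libraries. Serp had 8.57 and 497.6 TPM in EC-RNA, 288.3 and 301.0 TPM in ref-RNA, and 40.1 and 145.6 TPM in mock-RNA. The adjacent genes were not held at a steady ratio, for verm was 44.2 and 2.39 times serp in EC-RNA, 1.98 and 1.75 times in ref-RNA, and 3.68 and 1.47 times in mock-RNA. The ratio was highest in EC-RNA replicate 1, in which verm was at 69.1% of its ref-RNA mean and serp at 2.91%. Cda5, a further member of the deacetylase family (2L:25402-65404, minus strand), had 0.480 and 32.8 TPM in EC-RNA, 21.9 and 24.2 TPM in ref-RNA, and 1.65 and 0 TPM in mock-RNA.

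The third group is the obstructor family of secreted chitin-binding proteins, to which Gasp belongs. Obst-A, a scaffold protein of the epidermal chitin matrix (X:20239855-20243209, plus strand), had 178.7 and 661.3 TPM in EC-RNA, 536.9 and 478.0 TPM in ref-RNA, and 11.2 and 74.1 TPM in mock-RNA. Gasp, which is known from tracheal and embryonic cuticle (3R:6088799-6100887, minus strand), had 184.3 and 413.3 TPM in EC-RNA, 299.4 and 266.3 TPM in ref-RNA, and 0 and 14.2 TPM in mock-RNA. For both genes all EC-RNA values lay above all mock-RNA values and spread around the ref-RNA values. Obst-E, known for its part in shaping the pupal body (2L:5762553-5766142, minus strand), had 50.0 and 448.9 TPM in EC-RNA, 525.9 and 278.5 TPM in ref-RNA, and 116.7 and 158.9 TPM in mock-RNA. Obst-B (2L:10032690-10038954, plus strand) had 0 and 26.9 TPM in EC-RNA, 20.5 and 34.6 TPM in ref-RNA, and 12.2 and 0 TPM in mock-RNA. Obst-A, obst-B, obst-E and Gasp together took 43.0% and 45.9% of the 10 genes' TPM in EC-RNA, 60.0% and 54.4% in ref-RNA, and 41.9% and 39.2% in mock-RNA.

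The EC-RNA replicates differed widely for these genes. On the TPM + 1 scale they were 128-fold apart for knk, 53.3-fold for kkv, 52.1-fold for serp, 27.9-fold for obst-B and 22.9-fold for Cda5, and from 2.24-fold (Gasp) to 8.82-fold (obst-E) for the other genes not at 0. Thus 5 of the 10 genes (50.0%) were more than 10-fold apart in EC-RNA, none was in ref-RNA and 2 were in mock-RNA. Among the 5450 genes with a ref-RNA mean of at least 10 TPM, to which 9 of the members belong, 26.97% were more than 10-fold apart in EC-RNA, 1.05% in ref-RNA and 13.5% in mock-RNA. Of those 9 members, 5 (55.6%) were more than 10-fold apart in EC-RNA. The 5450 genes include 906 listed at 0 in both EC-RNA libraries, which cannot be apart there, while none of the 9 members was. Replicate 2 was higher than replicate 1 in 8 of the 9 members that had a value (88.9%), with knk the exception. Of those 5450 genes, 4544 had a value in EC-RNA, and replicate 2 was higher in 47.5% of them. The members also sat higher against ref-RNA than such genes did, but the sets were not matched for abundance beyond the minimum of 10 TPM. The 5 most abundant members ranked 149th to 313th of 11061 genes above 0 in ref-RNA. In EC-RNA replicate 1 the median member was at 12.4% of its ref-RNA mean and the median gene at 1.56%, and in replicate 2 the values were 143% and 0.872%. These are descriptions of single libraries, without a test. Markers of cuticle-forming cells differed between the EC-RNA replicates to varying degrees. The 3 tracheal markers found (of 4 listed) summed to 0.288 and 82.9 TPM in EC-RNA, 50.6 and 36.2 TPM in ref-RNA and 8.06 and 0 TPM in mock-RNA. That sum rested on pio, at 0 and 82.2 TPM in EC-RNA. Trh (0.131 and 0.673 TPM) and btl (0.158 and 0.0579 TPM) were below ref-RNA in both EC-RNA libraries, as were 69.1% of all genes tested. The 5 epidermal and larval cuticle markers summed to 25847 and 39022 TPM in EC-RNA, 17134 and 14111 TPM in ref-RNA and 4186 and 146508 TPM in mock-RNA. None of them was at 0, and 3 of 5 were above ref-RNA in both EC-RNA libraries, where 3.16% of all genes tested were. Of the 5, grh, an epidermal transcription factor gene, had 0.259 and 86.3 TPM in EC-RNA, and Lcp1 and Lcp4 were also higher in replicate 2. Lcp2 (3800 and 2004 TPM) and Lcp3 (255.2 and 3.28 TPM) were higher in replicate 1. The part of these cells in the members' values was not tested, and in bulk RNA fewer cells of a type cannot be told apart from less RNA per cell.

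**Figure D2:**
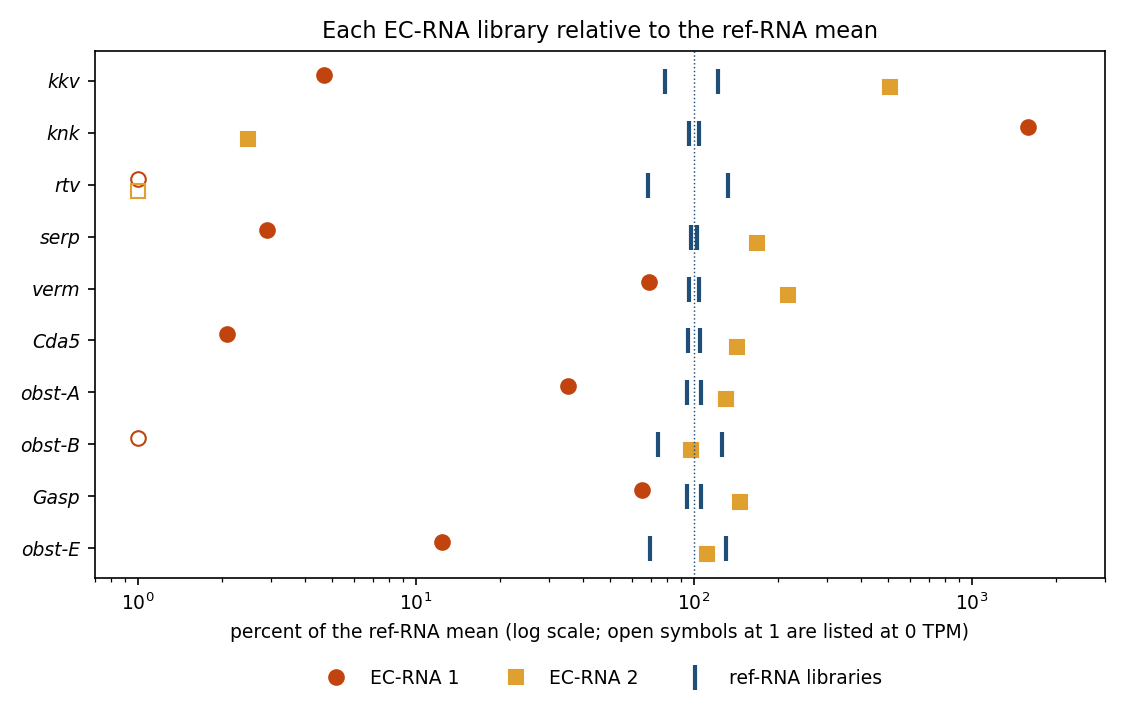
Values of the 10 genes in each EC-RNA library as a percentage of the gene's ref-RNA mean, on a log axis, with circles for replicate 1, squares for replicate 2, ticks for the ref-RNA libraries and open symbols at the left for values listed at 0. Replicate 2 is the higher point for every gene with a value except knk, for which replicate 1 is at 1587% and replicate 2 at 2.49%.

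Comparing EC-RNA with ref-RNA asks which transcripts are held more or less by tagged md neurons than by the whole carcass. With limma on log2(TPM + 1) and a call at an adjusted p-value below 0.05 and at least a 2-fold difference, 0 of the 10 genes were higher in EC-RNA and 1 was lower, rtv, and at an unadjusted p below 0.05 the numbers were the same. Over all 9064 genes tested, 0.199% were called higher and 56.0% lower. Rtv had an adjusted p of 0.00658 by limma, and as it was listed at 0 in EC-RNA no fold is given. With both EC-RNA values at 0, the EC-RNA replicates added no spread to that test. The call was lost with quantile normalization and with a pseudocount of 10. The tested rtv transcripts FBtr0331743 and FBtr0331742 were not called (limma adjusted p 0.455 and 0.436). Each of them was at 0 in a ref-RNA library. For the other 9 genes the EC-RNA and ref-RNA values overlapped, and the limma adjusted p ranged from 0.401 to 0.978. Of the fitted differences of these 9 genes, that of obst-B alone was larger than its standard error. They were 0.30 ± 0.76 (SE) log2 units for verm, -0.03 ± 0.83 for Gasp, -0.56 ± 0.91 for obst-A, -2.10 ± 2.38 for serp and -2.39 ± 1.93 for obst-B. They were 0.36 ± 2.74 for knk, -0.55 ± 2.31 for kkv, -1.34 ± 1.47 for obst-E and -1.76 ± 1.82 for Cda5. The median standard error of the 10 genes was 1.64, against 0.567 for all genes tested. The members had a median of -0.95 (-0.56 for the 9 not at 0), and all genes tested had a median of -2.59. No member was above ref-RNA in both EC-RNA libraries, where 3.16% of all genes tested were, and 1 member was below in both, where 69.1% were. A missed threshold does not show that the levels are alike, since these errors allow differences of several-fold. The direction of single members hung on the library. Without EC-RNA replicate 1, the difference was 2.32 for kkv, 1.12 for verm and -3.14 for knk. Without replicate 2, it was -3.42 for kkv, -0.53 for verm and 3.86 for knk. The median of the members was 0.44 without the first and -3.01 without the second, and that of all genes -2.62 and -2.95. With median-of-ratios scaling, verm was called higher and the members' median moved to 1.97, while that of all genes moved to -1.16.

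Comparing EC-RNA with mock-RNA asks whether a transcript was captured beyond what sticks without a tag. Of the 10 genes 9 passed the filter, and limma called 0 higher and 0 lower, with a smallest adjusted p of 0.167. Over all 4096 genes tested, 0.342% were called higher and 0.0244% lower. With all 3 sample types in one fit, which called none of the members, 286 genes were called higher and 40 lower. At an unadjusted p below 0.05 there were 2 members, Gasp, with a difference of 6.15 ± 1.78 (SE) log2 units, and obst-A, with 3.51 ± 1.41. Knk, verm, obst-A and Gasp, 4 of the 9, were above mock-RNA in both EC-RNA libraries, where 33.9% of all genes tested were, and no member was below in both, where 8.57% were. The other 5 overlapped. The median difference of the 9 genes was 1.91, the same as the 1.91 of all genes tested, and it was 1.22 for the 8 not listed at 0 in mock-RNA. The members' median depended on the setting, at -0.066 with quantile normalization (0.44 for all genes), 3.05 without EC-RNA replicate 1 and -0.17 without replicate 2. The difference of knk was 7.32 log2 units without EC-RNA replicate 2, against 3.82 with both.

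Comparing ref-RNA with mock-RNA gives the same check for RNA tagged in all cells. All 10 genes were tested, 5 were higher in ref-RNA and none was lower, against 67.1% of all 9025 genes tested called higher and 0.731% lower. The 5 were knk (limma adjusted p 0.000763) and rtv (0.00707), both listed at 0 in mock-RNA, and Cda5, verm and Gasp. Mock-RNA had the fewest mapped reads, so 0 there says little about the background of genes as scarce as knk and rtv. Cda5 had a difference of 3.88 ± 0.59 (SE) log2 units (limma adjusted p 0.0134). Verm had 1.61 ± 0.39 (limma adjusted p 0.0380) and Gasp 6.18 ± 1.63 (limma adjusted p 0.0472). Obst-A just missed, with 4.07 ± 1.14 log2 units and a limma adjusted p of 0.0532. Serp (1.93), obst-B (2.93), obst-E (1.48) and kkv (0.84) had adjusted p-values by limma from 0.0921 to 0.468. All members but kkv, 9 of 10, had both ref-RNA values above both mock-RNA values, where 86.3% of all genes did, and none had both below, where 1.39% did. The median difference was 3.02 for the members (2.43 for the 8 not at 0) and 3.19 for all genes. The share of members called higher was below that of all genes, and their median was close to that of all genes. The members' median was 3.35 without ref-RNA replicate 1 and 2.63 without replicate 2, where that of all genes was 3.40 and 3.49. With quantile normalization none of the 5 was called, and the medians were -0.13 for the members and -0.16 for all genes.

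At the level of transcripts, 23 of the 28 were above 0 in a ref-RNA library, 15 in an EC-RNA library, and 2 were at 0 in all 6. For 16 transcripts both ref-RNA libraries had at least 1 TPM, and for 6 both EC-RNA libraries did. In EC-RNA against ref-RNA, 20 were tested, 0 were called higher and 5 lower, the same numbers as at an unadjusted limma p below 0.05, against 0.592% and 44.5% of all 14534 transcripts tested. With a pseudocount of 10, 0 of the 20 were called lower. The 5 belonged to Cda5 and verm, whose gene sums were not called. For Cda5, FBtr0309228 had 0.355 and 0.0615 TPM in EC-RNA against 10.5 and 8.91 TPM in ref-RNA, a difference of -3.15 ± 0.27 (SE) log2 units (limma adjusted p 0.00675). The Cda5 transcripts FBtr0309226 and FBtr0078164 were listed at 0 in EC-RNA and had 5.54 and 3.53 TPM, and 5.84 and 2.66 TPM, in ref-RNA (limma adjusted p 0.0137 and 0.0303). They have 59 and 0 bases found in no other Cda5 transcript, so these values are uncertain. For verm, FBtr0345144 had 0.000563 and 0.00620 TPM in EC-RNA against 12.97 and 49.99 TPM in ref-RNA, a difference of -4.73 ± 0.79 (SE) log2 units (limma adjusted p 0.0207). The verm transcript FBtr0345145 was listed at 0 in EC-RNA and had 39.5 and 10.9 TPM in ref-RNA (limma adjusted p 0.0207). These were minor transcripts of verm, since FBtr0302335 held nearly all of the gene in both EC-RNA libraries and 90.8% and 88.4% in ref-RNA. FBtr0345144 has 0 bases found in no other verm transcript and FBtr0345145 has 72, so the split rests on little sequence.

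The main transcript of Gasp differed between the EC-RNA replicates. Its FBtr0078619 made up 99.6% of the gene in EC-RNA replicate 1 and 0.244% in replicate 2, against 52.5% and 65.7% in ref-RNA, where the other, FBtr0112922, held the rest. The 2 transcripts had 183.5 and 1.01 TPM, and 0.763 and 412.3 TPM, in EC-RNA. They differ in much of their sequence, with 672 and 895 bases found in one and not the other. Obst-E kept FBtr0079163 as its main transcript, at 97.2% and 91.4% of the gene in EC-RNA, 61.6% and 65.3% in ref-RNA, and 50.1% and 83.4% in mock-RNA. Kkv was split in ref-RNA, with FBtr0301398 at 17.7% and 84.3% and FBtr0078800 at 82.3% and 15.7%, and was FBtr0301398 alone in both EC-RNA libraries. In mock-RNA nearly all of kkv was FBtr0078798, which was at 0 in EC-RNA and in ref-RNA. The kkv transcripts share most of their sequence (177 bases are found in FBtr0301398 alone and 0 in the others), so these shares are uncertain. Cda5 in EC-RNA replicate 2 was 99.5% FBtr0309227, a transcript with 11 bases of its own that was at or near 0 in ref-RNA. One transcript taking nearly all of a gene was common in EC-RNA. Among genes with at least 2 transcripts at 1 TPM or more in ref-RNA and at least 10 TPM in both libraries, the top transcript held 90% or more in both EC-RNA libraries for 341 of 575 genes (59.3%) and in both ref-RNA libraries for 275 of 2508 (10.96%). The 10 TPM minimum was applied to each sample type separately, so the 575 and the 2508 genes are different sets. The top transcript differed between the EC-RNA replicates for 39.7% of the 575 genes and between the ref-RNA replicates for 34.0% of the 2508. Of the members, 3 met the condition in EC-RNA (Gasp, obst-E and verm), with a different top transcript in Gasp alone. Of the 6 that met it in ref-RNA, kkv was the 1 with a different top transcript. Rtv, too scarce to meet it, was wholly FBtr0331743 in ref-RNA replicate 1 and wholly FBtr0331742 in replicate 2. These have 87 and 0 bases found in no other rtv transcript, so this split is uncertain.

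**Figure D3:**
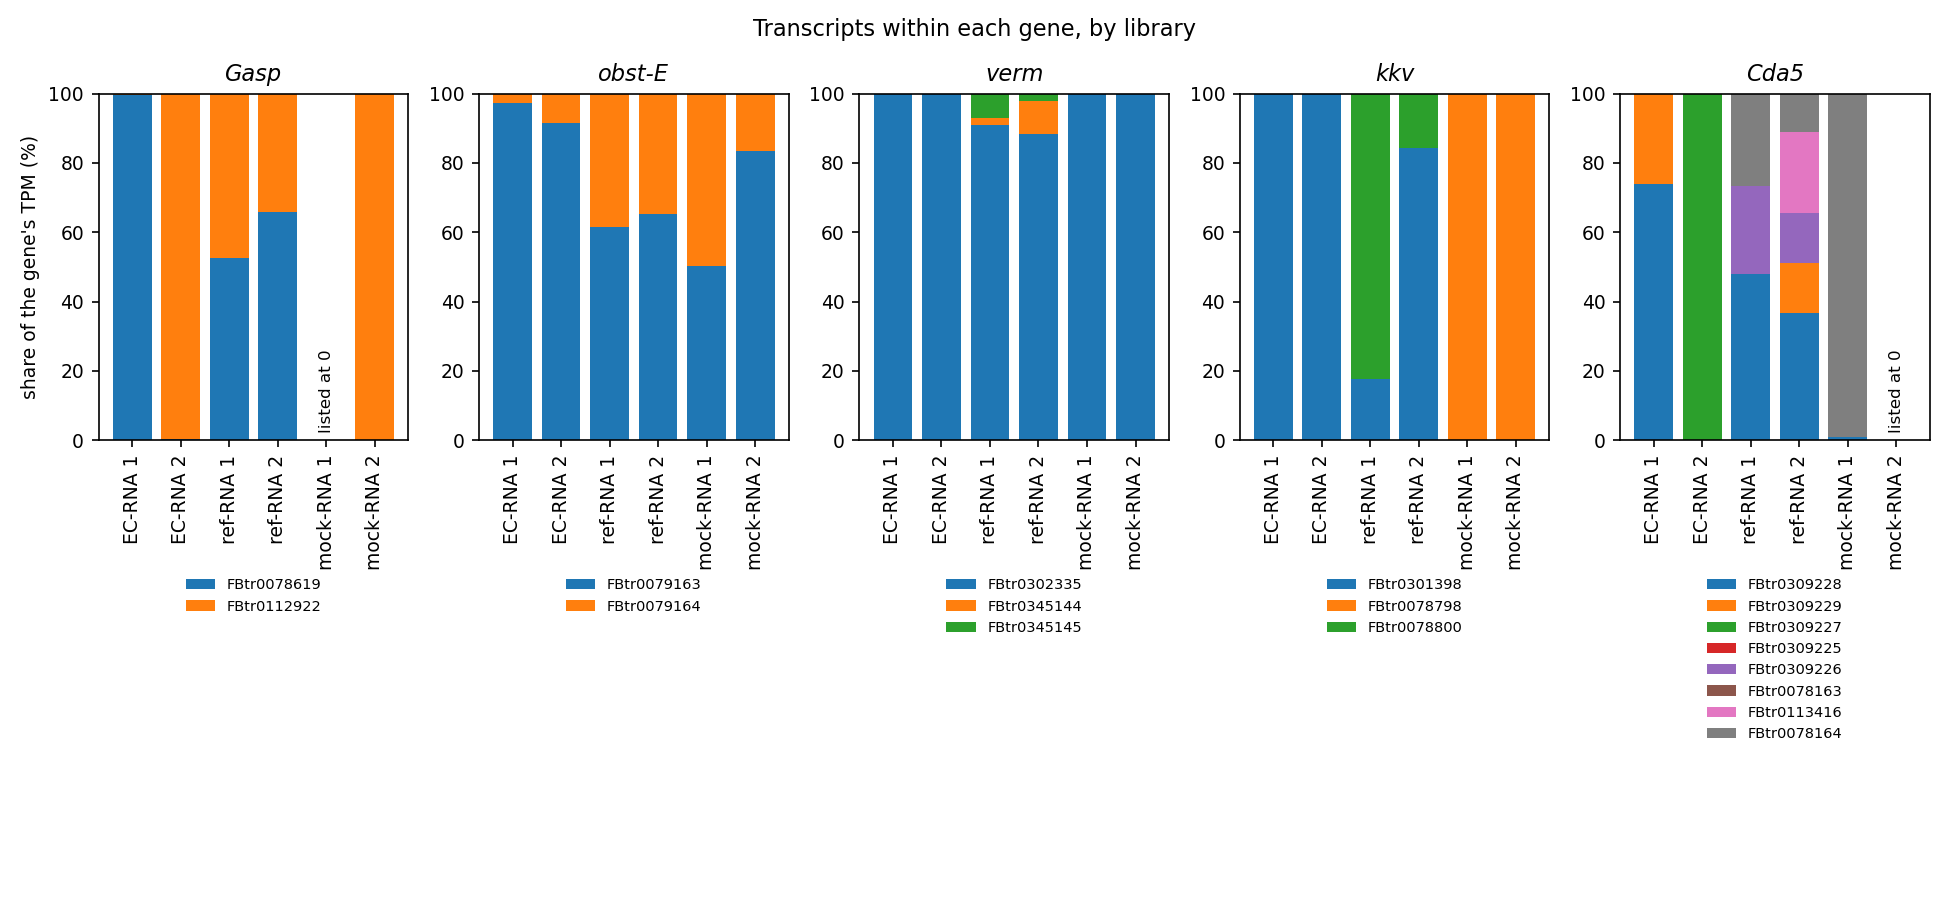
Share of each gene's TPM held by each transcript, in percent, as stacked bars for Gasp, obst-E, verm, kkv and Cda5 in the EC-RNA, ref-RNA and mock-RNA libraries (a library with the gene at 0 has no bar). The Gasp bar is almost wholly one transcript in EC-RNA replicate 1 and wholly the other in replicate 2, while both appear in ref-RNA.

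Of 42 other genes of the chitin pathway that were listed, 41 were found, and 28 of them were tested in EC-RNA against ref-RNA. None was called higher and 11 were lower (0 and 12 at an unadjusted limma p below 0.05), with a median of -2.23. The 11 are 39.3% of those tested, below the 56.0% of all genes tested. With quantile normalization, under which no gene of the table was called, Hexo1 also changed direction. Enzymes that supply the sugar nucleotide gave 1 lower of 5 tested, and other chitin-binding proteins gave 2 of 3. Chitinases and hexosaminidases, which break chitin and related sugars down, gave 5 of 10, and the chitinase-like growth factors of the Idgf family gave 3 of 6. The synthesis partners reb and exp and the other deacetylases tested gave no call. Muc96D, a mucin-like gene, was listed at 0 in both EC-RNA libraries and had 10.3 and 14.96 TPM in ref-RNA (limma adjusted p 0.00288). Fdl, an enzyme that trims sugar chains on proteins, had 1.01 and 0.465 TPM in EC-RNA against 61.4 and 41.7 TPM in ref-RNA, a difference of -4.91 ± 0.48 (SE) log2 units (limma adjusted p 0.00436). Hexo1, a hexosaminidase gene, had 0 and 0.114 TPM in EC-RNA against 5.62 and 5.99 TPM in ref-RNA, and Idgf1 had 0.450 and 0 TPM against 25.1 and 17.9 TPM. Both were lower by limma (adjusted p 0.00310 and 0.00332). With median-of-ratios scaling the calls of Idgf1 (adjusted p 0.101) and fdl (0.129) were lost, and that of Hexo1 was lost with all 3 sample types in one fit (limma adjusted p 0.0893) and with a pseudocount of 10, where it was under 2-fold. In ref-RNA against mock-RNA, 13 of 26 tested (50.0%) were higher, against 67.1% of all genes, and none lower, and in EC-RNA against mock-RNA, 0 of 23 were called by limma, and an unadjusted p below 0.05 was reached by 2 genes, both higher. Of the most abundant pathway genes in ref-RNA, Gfat1, the first enzyme of the hexosamine route, had 5.54 and 682 TPM in EC-RNA, 314.2 and 274.9 TPM in ref-RNA and 16.3 and 40.3 TPM in mock-RNA. Nst, a mutase of the same route, had 59.0 and 120.7 TPM in EC-RNA, 24.6 and 29.4 TPM in ref-RNA and was listed at 0 in mock-RNA. Of the 28 pathway genes tested, nst alone was above ref-RNA in both EC-RNA libraries, a share near the 3.16% of all genes tested. It was not called (1.62 ± 1.08 log2 units, limma adjusted p 0.324). Idgf4 had 143.9 and 308.5 TPM in EC-RNA and 284.1 and 290.2 TPM in ref-RNA. Idgf6 had 4.59 and 2.30 TPM in EC-RNA and 135.9 and 302 TPM in ref-RNA.

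Of the 41 pathway genes, 12 (29.3%) were more than 10-fold apart in EC-RNA (4 with replicate 1 higher and 8 with replicate 2 higher) and none was in ref-RNA. Among the 21 with a ref-RNA mean of at least 10 TPM the number was 9 (42.9%), against 26.97% of all genes above that minimum, without a test. Of genes chosen after their values were seen, mmy, which makes the sugar nucleotide that Kkv uses, had 1.95 and 543 TPM in EC-RNA and 75.6 and 61.1 TPM in ref-RNA. Reb and exp, which enable chitin deposition by Kkv, had 106.4 and 0 TPM, and 200.1 and 0.312 TPM, in EC-RNA. In ref-RNA they had 49.6 and 43.3 TPM, and 34.6 and 22.3 TPM. Mmy was thus high in the replicate in which kkv was high, and reb and exp in the one in which knk was high. With 2 replicates, any gene that far apart goes with either kkv or knk, so these matches show no link. A link between these genes was not tested.

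**Figure D4:**
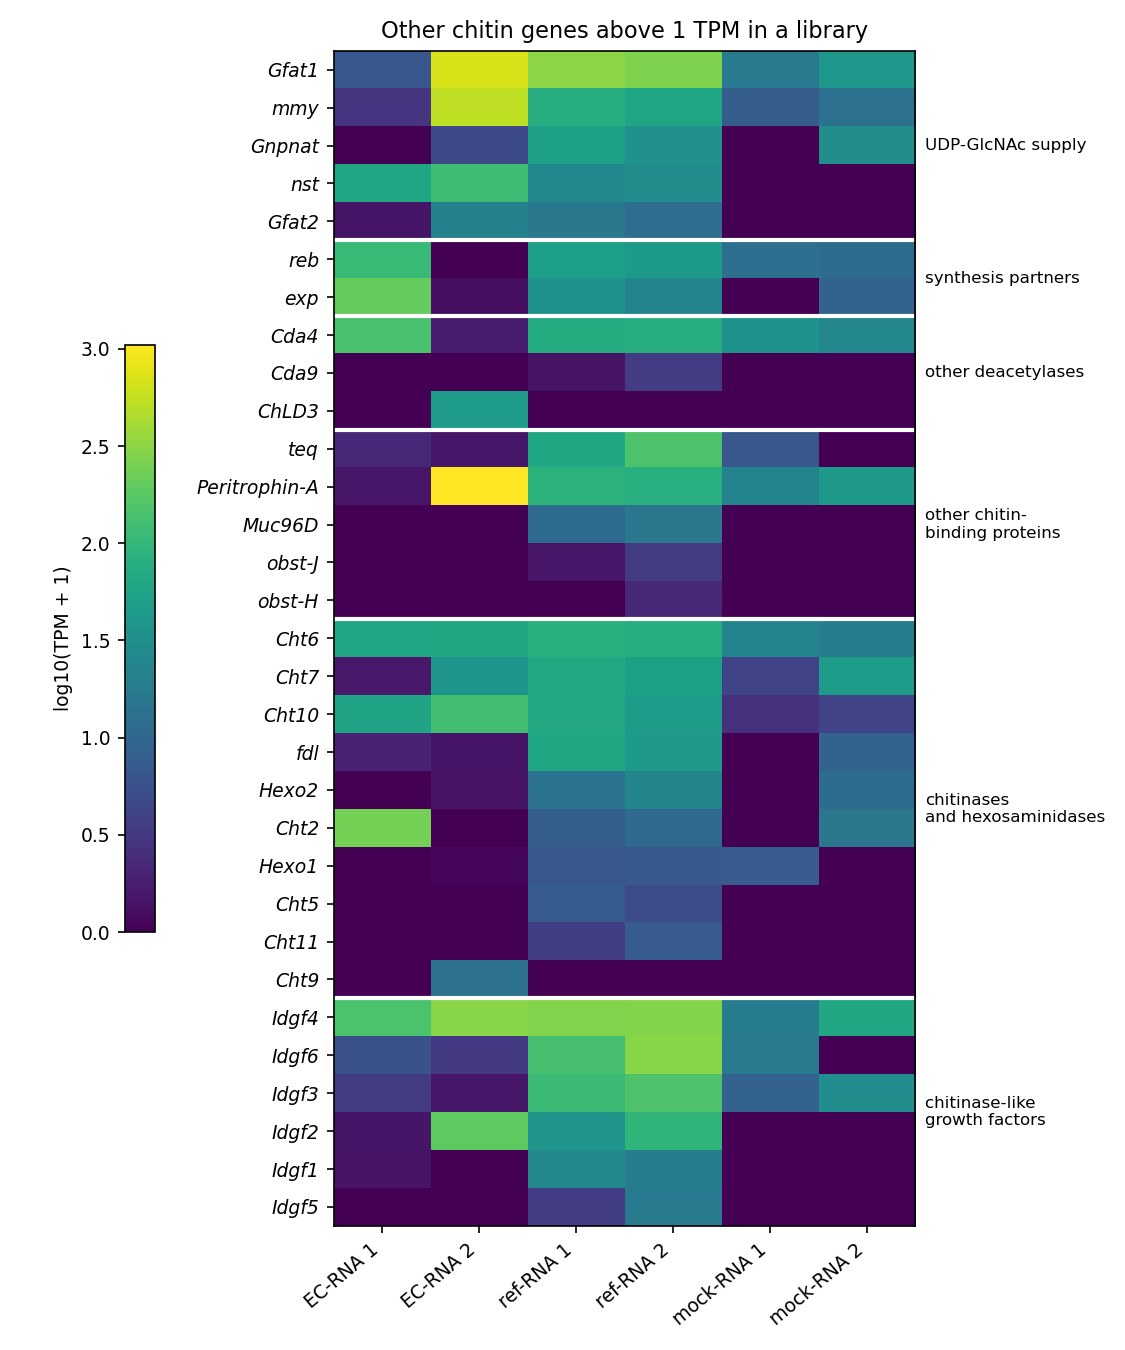
Heat map of log10(TPM + 1) of the other chitin pathway genes that exceed 1 TPM in a library, with libraries as columns and genes as rows grouped by role. Both EC-RNA columns differ widely for genes such as Peritrophin-A, Cht2, mmy and exp, while nst is brighter in both EC-RNA columns than in either ref-RNA column.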

How the data were processed

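RNA from the 6 libraries, 2 of each of the 3 sample types, was measured by sequencing. The authors ran Trimmomatic on the reads, quantified BDGP6 transcripts with kallisto and deposited TPM per transcript. In it 132111 cells are blank and were read as 0. TPM keeps no depth, so precision rests on the replicate spread. The authors' DESeq2 test on reads was not repeated. Transcripts were summed by gene name. Values were tested on log2(TPM + 1) with limma 3.58.1 (R 4.3.3), keeping genes that averaged 1 TPM or more in those 4 libraries, with a trended spread and Benjamini-Hochberg adjustment over all genes; fold changes understate low genes. The fit was tested on simulated data in which every library had the replicate spread of ref-RNA. That test does not cover the wider spread of EC-RNA and mock-RNA. Python 3.11.15 was used otherwise. Positions are from BDGP6.54 (Ensembl 115). Alternatives were other scalings, pseudocounts 0.1 and 10, filters, a joint fit of the 3 sample types, a replicate block and leaving out libraries. Pathway genes named were up to 4 called and up to 4 most abundant per comparison, with others chosen after their values were seen. The members and lists were chosen with earlier results of these data known. No pairing of replicates across sample types is stated.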

Additional observations from a re-analysis of the deposited data

How the results depend on the processing

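With 2 libraries a sample type, leaving 1 out assumes that the lone library varies like the others. In EC-RNA against ref-RNA, members called lower (1) became 0 with quantile normalization, a pseudocount of 10 and a filter of 5 TPM (rtv then untested), and 1 to 7 with a library left out. Members called higher (0) became 1 with median-of-ratios scaling and 0 to 2 with a library left out, and the median became 1.97 with median-of-ratios scaling. Leaving out libraries gave ranges of -3.42 to 2.32 for kkv, -3.14 to 3.86 for knk, -4.95 to 0.75 for serp, -1.50 to 0.38 for obst-A, -4.79 to 0.0093 for obst-B, -2.91 to 0.23 for obst-E, -0.61 to 0.55 for Gasp, -4.02 to 0.50 for Cda5 and -0.53 to 1.12 for verm. Quantile normalization reversed kkv (2.45), verm (-0.033), Cda5 (1.01) and Hexo1 (0.37). Median-of-ratios scaling reversed kkv (2.12), serp (1.01), obst-A (2.61), obst-E (1.82), Gasp (3.13) and Cda5 (0.75). Gasp also reversed without mitochondrial genes (0.19), knk with a pseudocount of 0.1 (-0.44) and kkv with one of 10 (0.23).

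In EC-RNA against mock-RNA, leaving aside fits without a library, members called higher (0) became 1 with the replicate block. Quantile normalization reversed kkv (-1.56), verm (-0.066), obst-B (-1.78) and obst-E (-2.04), and median-of-ratios scaling kkv (-0.18), obst-B (-0.23) and obst-E (-0.17). Serp reversed without mitochondrial genes (0.37) and with a pseudocount of 10 (0.14), and kkv with one of 0.1 (-0.0092). Leaving out libraries gave -3.02 to 2.68 for serp, -2.58 to 3.16 for kkv, -1.86 to 2.94 for obst-B and -1.43 to 1.71 for obst-E. In ref-RNA against mock-RNA, again leaving aside such fits, members called higher (5) became 0 with quantile normalization and 2 with median-of-ratios scaling. They became 3 with a pseudocount of 0.1 and 2 with all 3 sample types in one fit. The median (3.02) became -0.13, 1.33, 4.36 with a pseudocount of 0.1 and 1.497 with one of 10. Quantile normalization reversed kkv (-2.79), rtv (-0.16), serp (-0.30), obst-B (-1.15), obst-E (-0.24) and Cda5 (-0.092). Median-of-ratios scaling reversed kkv (-1.44), verm (-0.85), serp (-0.53) and obst-E (-0.98). Leaving out libraries gave -0.27 to 1.94 for kkv. Transcripts of the members called lower (5) became 0 with a pseudocount of 10. The cause of these changes was not tested.

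Over all genes, calls in EC-RNA against ref-RNA were 0 and 0 with quantile normalization (371 and 810 at an unadjusted p below 0.05) and 113 and 2496 with median-of-ratios scaling, against 18 and 5080, and the median of all genes moved from -2.59 to 0.08 and -1.16. Same-numbered deviations of the sample types correlated at 0.00325, 0.0108 and 0.00127 across genes. Such values cannot show whether same-numbered replicates were handled together. With the replicate block, 1 member was called higher in EC-RNA against mock-RNA and 3 transcripts of members were called lower in EC-RNA against ref-RNA, while calls over all genes were 9 and 4537 in EC-RNA against ref-RNA, and 157 and 37 in EC-RNA against mock-RNA, where they were 14 and 1 without it. With all 3 sample types in one fit, calls over all genes in EC-RNA against mock-RNA were 286 and 40. In EC-RNA against mock-RNA they were 21 and 17 with quantile normalization, 0 and 0 with median-of-ratios scaling (326 and 85 at an unadjusted limma p below 0.05), 4 and 1 with a pseudocount of 0.1 and 22 and 3 with one of 10. In ref-RNA against mock-RNA they were 511 and 129 with quantile normalization and 4804 and 157 with median-of-ratios scaling, against 6054 and 66. In EC-RNA against ref-RNA they were 22 and 2749 with a pseudocount of 10 and 18 and 2992 with a filter of 5 TPM.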
